A study of Mus musculus with 6 samples.

Results

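Collagen chain genes encode the polypeptides whose triple helices make up the collagens, the main fibres and sheets of the arterial wall. They were chosen by name as every gene whose symbol has the form of Col, a number, a and a number, and 44 of the 27815 gene identifiers in the data carried such a symbol. By structure they comprised 11 fibrillar chains, 6 chains of the basement membrane network, 6 beaded filament chains, 9 FACIT chains (fibril-associated collagens with interrupted triple helices) and 12 others, which were 2 multiplexins, 3 short-chain network formers, 4 transmembrane collagens and 3 anchoring or unclassed chains. The rule reads the names alone.

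Each chain carries repeats of glycine followed by any pair of residues, and is hydroxylated, glycosylated and folded in the endoplasmic reticulum before it is secreted, trimmed and cross-linked. In the aorta, fibrillar types I and III bear tensile load in the media and adventitia, with type V built into the same fibrils. Type IV networks and the multiplexins sit in the basement membranes around smooth muscle cells and under the endothelium, and type VI microfibrils link the cells to the fibrillar matrix. Type VIII, a short-chain collagen, is known from the endothelium and from smooth muscle in injured vessels, and types II and X are known best from cartilage.

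Polyadenylated RNA of whole aorta from C57BL/6 mice was sequenced in 6 libraries, 2 per group. Ctrl was wild type and labelled 2 months old. ApoE was ApoE-/-, lacking apolipoprotein E in every cell, fed chow and labelled 16 months old, an age at which its plaques were calcified. CKD was a model of chronic kidney disease in which the poles of the left kidney were removed at 8 weeks of age and the right kidney after 1 week of recovery, followed by 4 weeks of 2% phosphate in the diet and 0.45% NaCl in the water, which gives calcification of the media. The CKD age label also reads 16 months, which does not match that schedule, so the age of these mice is uncertain. Genotype and age differ together between ApoE and Ctrl and cannot be told apart. Nothing in the labels tells if a group's libraries are separate animals or pools, so every p-value measures only how far these libraries differ, and that spread may be technical.

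Values are FPKM, reads per kilobase of exon at a common depth. The scale recovered from the data put that depth at 14.4 to 16.6 M reads per library. Read numbers of all genes on this scale summed to more, 15.5 to 17.9 M, so they are approximate. The Apoe transcript, as a check of the labels, stood at 756 and 627 FPKM in Ctrl, 13.2 and 11.4 in ApoE and 1410 and 1447 in CKD. Markers of several cell types stood at different levels in the groups. The 8 contractile smooth muscle markers, the defining cells of the media, summed to 9904 to 10931 FPKM in Ctrl, 800 to 931 in ApoE and 4636 to 7674 in CKD, and the 8 fibroblast markers to 2702 to 3046, 1130 to 1583 and 2287 to 2914. The 8 macrophage markers summed to 497 to 546 in Ctrl, 6882 to 10492 in ApoE and 1083 to 1696 in CKD. The 8 adipocyte markers summed to 158 and 415 in Ctrl, 1380 and 1240 in ApoE, and 3126 and 988 in CKD. The 8 mesothelium markers, of the lining of the body cavities, summed to 0.589 and 1.32 FPKM in Ctrl, 10.3 and 6.26 in ApoE, and 64.8 and 51.6 in CKD, and the 8 cardiomyocyte markers to 11.1 and 11.2, 12.1 and 12.1, and 31.2 and 38.0. Mitochondrial transcripts held 8.49% and 10.8%, 21.8% and 23.7%, and 22.2% and 14.1% of all FPKM in the same order. In bulk tissue, fewer cells of a type and less RNA per cell cannot be told apart, and that holds for every difference below.

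Of the 44 chains, 28 reached 1 FPKM in at least 2 libraries and were tested, and 16 did not. By structure the tested chains were 9 fibrillar, 6 basement membrane, 4 beaded filament, 4 FACIT and 5 others. The collagens together summed to 2503 and 2488 FPKM in Ctrl, 871 and 686 in ApoE, and 1006 and 1579 in CKD. The sum was therefore lower in all 4 diseased libraries than in both Ctrl libraries. As a share of all FPKM it was 0.799% and 0.757% in Ctrl, 0.227% and 0.172% in ApoE, and 0.261% and 0.462% in CKD. The range over chains was wide, as the plot of levels in every library shows. The highest chain was Col1a1 in Ctrl and ApoE and Col18a1 in CKD. The lowest by its mean over all libraries was Col26a1, which had 1 read in Ctrl, 0 in ApoE and 3 in CKD.

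**Figure D1:**
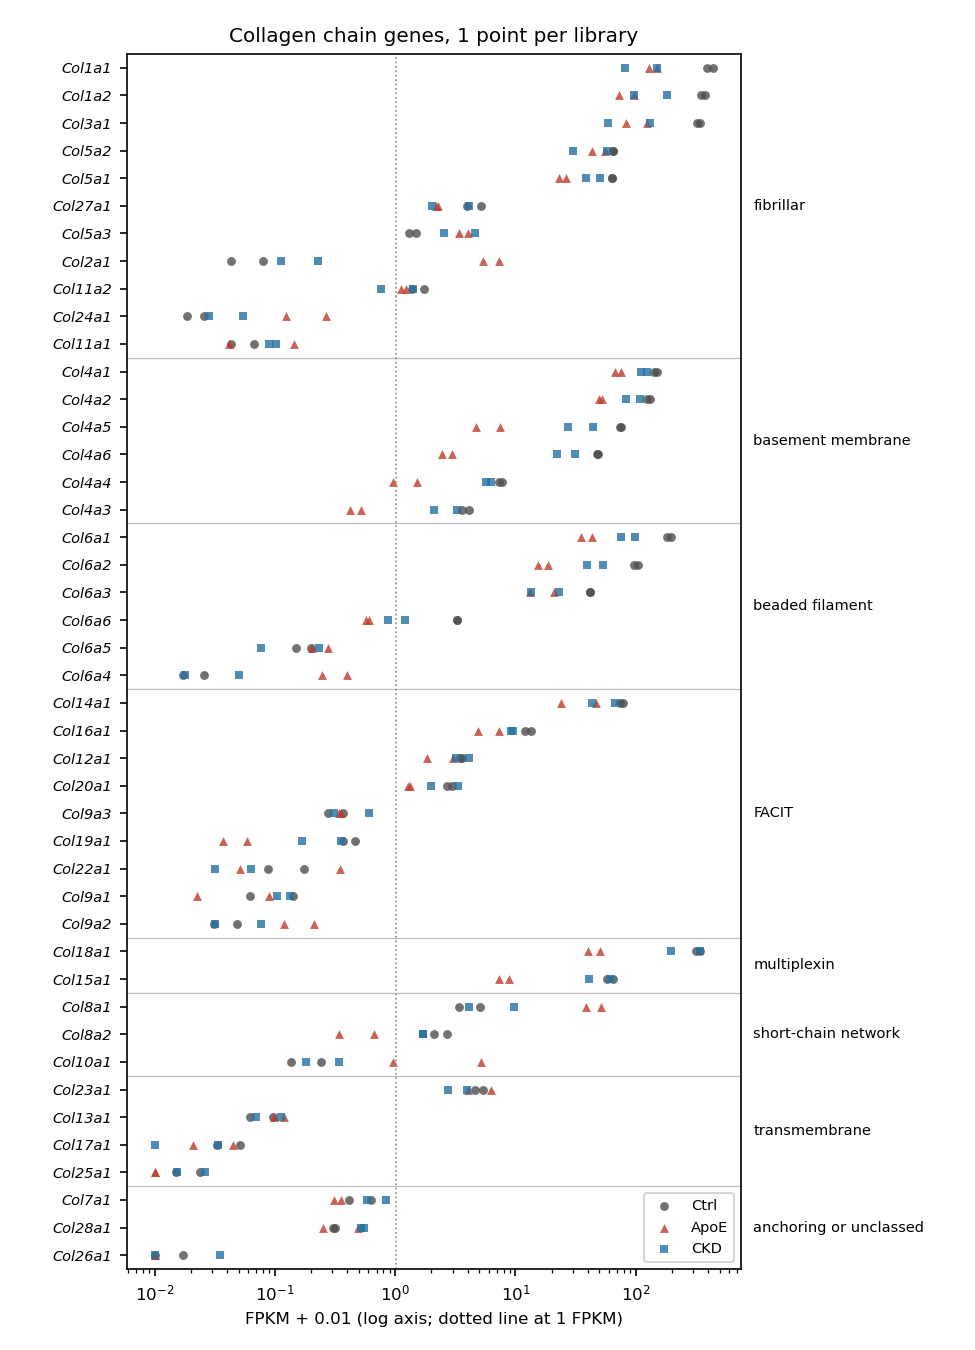
FPKM of each of the 44 collagen chain genes (rows, grouped by structure) on a log axis with 0.01 added, 1 point per library; circles are Ctrl, triangles ApoE and squares CKD, and the dotted line marks 1 FPKM. Most abundant chains have both ApoE triangles left of the Ctrl circles, while Col8a1 and Col2a1 have them to the right.

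The 3 groups gave 3 comparisons, of which ApoE versus Ctrl and CKD versus Ctrl share the Ctrl libraries. In ApoE versus Ctrl, 20 of the 28 chains tested were lower and 3 were higher at an adjusted p below 0.05 (limma on log2(FPKM + 1), Benjamini-Hochberg over all genes). Of all 14074 genes tested, 44.1% were called in this comparison, 24.3% lower and 19.8% higher. The median log2 fold change was -1.30 over the collagen chains and -0.07 over all genes. Between CKD and Ctrl, 4 chains were lower in CKD and 0 higher by limma, against 5.44% of all genes called, 3.21% lower and 2.23% higher. At an unadjusted p below 0.05, 10 chains were lower and 1 was higher, where 4217 of all 14074 genes passed either way, and the median was -0.45 against -0.03 over all genes. In ApoE versus CKD, the direct comparison of the diseased groups, 13 chains were lower in ApoE and 2 were higher, against 39.7% of all genes called, 21.2% lower and 18.5% higher. The median was -0.65, with -0.04 over all genes. In both comparisons of ApoE the chains called higher include Col2a1, which reached 1 FPKM in the ApoE libraries alone.

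The 4 CKD calls were not stable, and neither were those of all genes. They fell to 0 in the fit of only the 4 libraries compared, where 3 of 13200 genes were called. Leaving out CKD replicate 2 gave 12 lower chains and 1 higher, with 17.1% of all genes called, while leaving out any other library gave 0 lower chains, with 0 to 37 genes called in all. The 6 mesothelium markers tested were all higher in CKD than in Ctrl by limma. Among them, Lrrn4 and Krt8 passed the filter on low values through the CKD libraries alone. The part of the mesothelium markers in the CKD values of the collagens was not tested. In ApoE versus Ctrl the chains called higher numbered 2 without either Ctrl library and 1, Col8a1, without either ApoE library. In ApoE versus CKD 7 chains were lower without ApoE replicate 2, and without CKD replicate 2 those called higher were 4, with Col1a1 and Col5a2 added. With the adipocyte level as a covariate, 8 chains were lower in ApoE than in Ctrl, in place of 20. They were Col4a4, Col4a5, Col4a6, Col6a1, Col6a2, Col15a1, Col20a1 and Col27a1, of which Col27a1 was not called in the main fit. Col8a1 was still higher, as was Col2a1, which passed the filter on low values only through the ApoE libraries. In that fit 11.0% of all genes were called, 737 of them lower. That covariate itself differs between the groups, and the part of the adipocytes in the other differences was not tested beyond this fit.

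**Figure D2:**
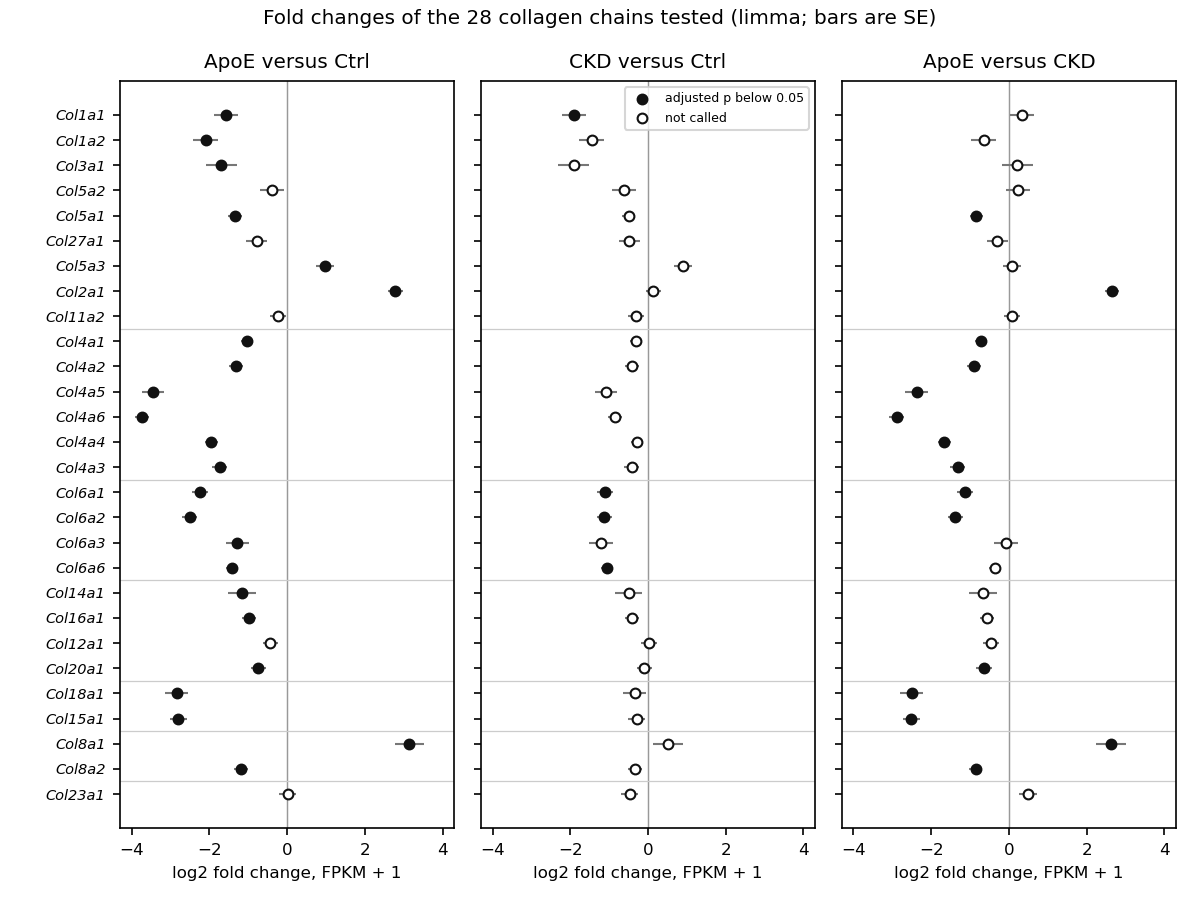
Log2 fold change of FPKM + 1 for the 28 collagen chains tested, in 3 panels for ApoE versus Ctrl, CKD versus Ctrl and ApoE versus CKD; bars are the SE from limma and filled points have an adjusted p below 0.05. In the left panel 20 filled points lie below 0 and 3 above; in the middle panel 4 are filled; in the right panel all 6 type IV chains are filled and below 0.

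Among the fibrillar chains, 4 of 9 tested were lower in ApoE than in Ctrl and 2 were higher, and their median log2 fold change was -0.78. Of all genes, 24.3% were lower and 19.8% higher in that comparison. In CKD 1 of 9 was lower, against 3.21% of all genes. Type I is a trimer of a pair of chains from Col1a1 (ENSMUSG00000001506; GRCm38 chr11:94936224-94953042) and a single chain from Col1a2 (ENSMUSG00000029661; chr6:4504814-4541544). Col1a1 had 441 and 391 FPKM in Ctrl, 149 and 128 in ApoE, and 81.0 and 149 in CKD. Both Ctrl libraries lay far above the other 4, which overlapped among themselves. The log2 fold change was -1.58 in ApoE (SE 0.31, limma adjusted p = 0.00972) and -1.91 in CKD (SE 0.31, limma adjusted p = 0.0364), and 0.33 between ApoE and CKD (limma adjusted p = 0.433). Col1a2 had 376 and 352 FPKM in Ctrl, 97.5 and 72.7 in ApoE, and 96.9 and 182 in CKD. Its log2 fold change was -2.10 in ApoE (SE 0.33, limma adjusted p = 0.00465), and in CKD its log2 fold change was -1.45 (SE 0.33, limma adjusted p = 0.0601). Thus both type I chains were lower in ApoE, and in CKD Col1a1 passed the threshold and Col1a2 did not. The CKD call of Col1a1 was lost in the fit of only the 4 libraries compared. The difference between the chains was not tested.

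Col3a1 (ENSMUSG00000026043; chr1:45311538-45349706) encodes the chain of type III, the extensible fibrillar collagen that is mutated in vascular Ehlers-Danlos syndrome. It had 322 and 345 FPKM in Ctrl, 125 and 83.8 in ApoE, and 58.9 and 131 in CKD. As for Col1a1, both Ctrl libraries were above the other 4. The log2 fold change was -1.69 in ApoE (SE 0.40, limma adjusted p = 0.0188) and -1.91 in CKD (SE 0.40, limma adjusted p = 0.0532). The ApoE call of Col3a1 was lost without Ctrl replicate 1, Ctrl replicate 2 or ApoE replicate 2, and that of Col1a1 without Ctrl replicate 1 or ApoE replicate 2. The ratio of Col3a1 to Col1a1, chosen after the values were seen, was 0.731 and 0.882 in Ctrl, 0.837 and 0.653 in ApoE, and 0.726 and 0.877 in CKD, so that the groups overlapped.

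Type V chains nucleate and limit the width of type I fibrils, and of its 3 genes 1 was lower in ApoE than in Ctrl, 1 was higher and 1 did not pass. Col5a1 had 63.1 and 63.7 FPKM in Ctrl, 26.2 and 22.8 in ApoE, and 39.0 and 50.6 in CKD, with a log2 fold change of -1.34 in ApoE (SE 0.17, limma adjusted p = 0.00238). Its order of levels was Ctrl, CKD, ApoE with no overlap. Col5a2, which lies tail to tail with Col3a1 on chromosome 1 with 24614 bases between the genes, had 64.9 and 64.7 FPKM in Ctrl, 55.8 and 43.7 in ApoE, and 30.2 and 57.6 in CKD. Its difference between ApoE and Ctrl did not pass (log2 fold change -0.39, SE 0.31, limma adjusted p = 0.351), although all 4 diseased libraries were below Ctrl. Col5a3, a minor chain, had 1.31 and 1.47 FPKM in Ctrl, 4.03 and 3.36 in ApoE, and 4.59 and 2.55 in CKD. It rose in ApoE (log2 fold change 0.97, SE 0.23, limma adjusted p = 0.0202), a call that was lost when any 1 of the Ctrl or ApoE libraries was left out, and in CKD the log2 fold change was 0.90 (limma adjusted p = 0.0765).

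Col2a1 (ENSMUSG00000022483; chr15:97975602-98004695), the fibrillar chain of cartilage, had 0.0701 and 0.0330 FPKM in Ctrl, 5.34 and 7.30 in ApoE, and 0.101 and 0.219 in CKD. In reads these were 15 in the 2 Ctrl libraries together, 1788 in ApoE and 43 in CKD. Both ApoE libraries thus stood far above the other 4, and the gene passed the filter through them alone, so that it could not be tested without either one. The log2 fold change was 2.79 over Ctrl (SE 0.19, limma adjusted p = 0.000322) and 2.65 over CKD (SE 0.19, limma adjusted p = 0.000696), on a scale that understates the change of low genes. With a pseudocount of 0.1 they were 5.40 and 4.65. The 8 chondrocyte markers summed to 54.4 and 54.0 FPKM in Ctrl, 30.1 and 18.7 in ApoE, and 72.3 and 127 in CKD. The largest part of the sum in every library was Comp, with 43.9 and 39.5, 19.8 and 9.39, and 66.2 and 107 FPKM in the same order. Matn1, a cartilage matrilin, was below 0.1 FPKM in every library. Of the 5 chondrocyte markers tested, 1 was higher in ApoE than in Ctrl (Chad) and 2 were lower (Comp and Hapln1) by limma. Hapln1 passed the filter on low values through the Ctrl libraries alone. Of all genes, 19.8% were higher and 24.3% lower. The part of the chondrocyte markers in the Col2a1 level was not tested.

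The other fibrillar chains were minor. Col27a1 had 3.91 and 5.17 FPKM in Ctrl, 2.26 and 2.16 in ApoE, and 4.13 and 2.02 in CKD, and Col11a2 had 0.75 to 1.72 in all 6 libraries. Neither passed the main test in any comparison. Col11a1 (at most 0.133 FPKM) and Col24a1 (at most 0.255) were not tested, and Col24a1 had 3 reads in Ctrl, 44 in ApoE and 7 in CKD.

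All 6 basement membrane chains were tested and all 6 were lower in ApoE, both against Ctrl and against CKD, with median log2 fold changes of -1.84 and -1.49. Of all genes, 24.3% were lower in ApoE versus Ctrl and 21.2% in ApoE versus CKD. Between CKD and Ctrl 0 of 6 passed, with a median of -0.42. Type IV genes lie in 3 head-to-head pairs, and their chains form the networks α1α1α2, α3α4α5 and α5α5α6. Col4a1 (ENSMUSG00000031502; chr8:11198423-11312826) and Col4a2, the ubiquitous pair, have start sites 21 bases apart and share 22 bases of exon on opposite strands. Col4a1 had 142 and 151 FPKM in Ctrl, 75.5 and 67.8 in ApoE, and 111 and 125 in CKD. Col4a2 had 125 and 131 FPKM in Ctrl, 52.8 and 49.4 in ApoE, and 83.5 and 109 in CKD. In both genes the groups were ordered Ctrl, CKD, ApoE without overlap, although the ApoE versus CKD call of Col4a1 was lost without any 1 of the Ctrl or ApoE libraries and that of Col4a2 without either ApoE library. The log2 fold changes in ApoE versus Ctrl were -1.03 (SE 0.16, limma adjusted p = 0.00431) and -1.31 (SE 0.18, limma adjusted p = 0.00288).

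The pair on the X chromosome had the largest fold changes of the type IV genes in ApoE versus Ctrl and in ApoE versus CKD. Col4a5 (ENSMUSG00000031274; chrX:141475385-141689234), which is mutated in X-linked Alport syndrome, had 73.5 and 75.5 FPKM in Ctrl, 7.43 and 4.66 in ApoE, and 27.4 and 44.4 in CKD. Col4a6 (ENSMUSG00000031273; chrX:141165403-141474076), its partner in basement membranes of smooth muscle, had 47.8 and 48.5 FPKM in Ctrl, 2.95 and 2.45 in ApoE, and 22.1 and 31.3 in CKD. The groups again did not overlap, and the ApoE libraries held 9.97% and 6.25% of the Ctrl mean of Col4a5 and 6.13% and 5.08% of that of Col4a6. The log2 fold changes against Ctrl were -3.45 (SE 0.28, limma adjusted p = 0.000592) and -3.73 (SE 0.19, limma adjusted p = 0.00020). Against CKD they were -2.38 (limma adjusted p = 0.00257) and -2.89 (limma adjusted p = 0.000618). In CKD versus Ctrl they were -1.07 (limma adjusted p = 0.0784) and -0.85 (limma adjusted p = 0.0574), short of the threshold. Relative to Col4a1, Col4a5 stood at 0.516 and 0.499 in Ctrl, 0.0983 and 0.0687 in ApoE, and 0.246 and 0.357 in CKD, a ratio chosen after the values were seen. The contractile smooth muscle markers moved alongside, with 8 of 8 lower in ApoE than in both Ctrl and CKD by limma. In CKD versus Ctrl 0 of 8 were called. Of all genes, 24.3% were lower in ApoE versus Ctrl and 21.2% in ApoE versus CKD, and 5.44% were called in CKD versus Ctrl. Of the 8 fibroblast markers 5 were lower in ApoE than in Ctrl. Of the 8 endothelium markers 1 was lower there and 3 were higher. The part of these markers in the type IV difference was not tested.

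Because Col4a5 and Col4a6 moved together from a shared stretch of the X chromosome, with start sites 1309 bases apart in the GENCODE annotation, the 250 bases before each RefSeq start are shown (GRCm38.p6, 5′ to 3′ on the strand of the gene: Col4a6 is chrX:141474077-141474326, minus strand, and Col4a5 is chrX:141475169-141475418, plus strand). Capitals mark matches to any of 6 motifs searched on both strands, which are TATAAA (the core promoter sequence), CCAAT (known for NF-Y), GGGCGG (known for Sp1), TGTGGT (a core known for RUNX factors), TGANTCA (known for AP-1) and the CArG box of serum response factor.
Col4a6: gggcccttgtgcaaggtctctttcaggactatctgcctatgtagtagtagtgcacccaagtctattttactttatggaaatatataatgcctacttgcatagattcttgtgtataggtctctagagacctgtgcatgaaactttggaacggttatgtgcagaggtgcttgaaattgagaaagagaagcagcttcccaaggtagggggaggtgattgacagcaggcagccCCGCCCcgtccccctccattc
Col4a5: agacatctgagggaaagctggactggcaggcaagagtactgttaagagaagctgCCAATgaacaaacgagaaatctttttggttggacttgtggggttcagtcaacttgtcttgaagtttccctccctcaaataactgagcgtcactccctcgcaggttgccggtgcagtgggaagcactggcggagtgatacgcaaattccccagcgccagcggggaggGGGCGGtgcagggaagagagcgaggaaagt
The capitals in Col4a6 are 1 match to GGGCGG on the opposite strand, and those in Col4a5 are 1 match to CCAAT and 1 to GGGCGG. The letters GGGCGG occurred in 35.7% and CCAAT in 37.4% of all 32851 RefSeq windows of 300 bases (250 before to 50 after the start). Neither window held TATAAA, present in 13.6% of windows, TGANTCA, present in 7.81%, or the CArG box, present in 1.63%. Of the 44 chains 35 had such a window, 38 windows in all, of which 23 held GGGCGG, 13 held CCAAT, 5 held TATAAA and 1 held the CArG box. A match is a description of the letters only.

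The pair of Col4a3 and Col4a4, with start sites 72 bases apart on chromosome 1, encodes the network best known from the kidney glomerulus and was present at low level in aorta. Col4a3 had 3.62 and 4.12 FPKM in Ctrl, 0.510 and 0.412 in ApoE, and 2.10 and 3.29 in CKD. Col4a4 had 7.77 and 7.31 FPKM in Ctrl, 1.50 and 0.957 in ApoE, and 5.68 and 6.30 in CKD. Both ApoE libraries were below the other 4 for each gene. Their log2 fold changes in ApoE versus Ctrl were -1.74 (SE 0.19, limma adjusted p = 0.0014) and -1.95 (SE 0.16, limma adjusted p = 0.000535). With a pseudocount of 0.1 in place of 1 the value of Col4a3 was -2.83. Col4a3 shares 5.65% of its exon bases with a gene on the opposite strand, and the library kit does not mark strand, so an unknown part of its reads may come from that gene.

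**Figure D3:**
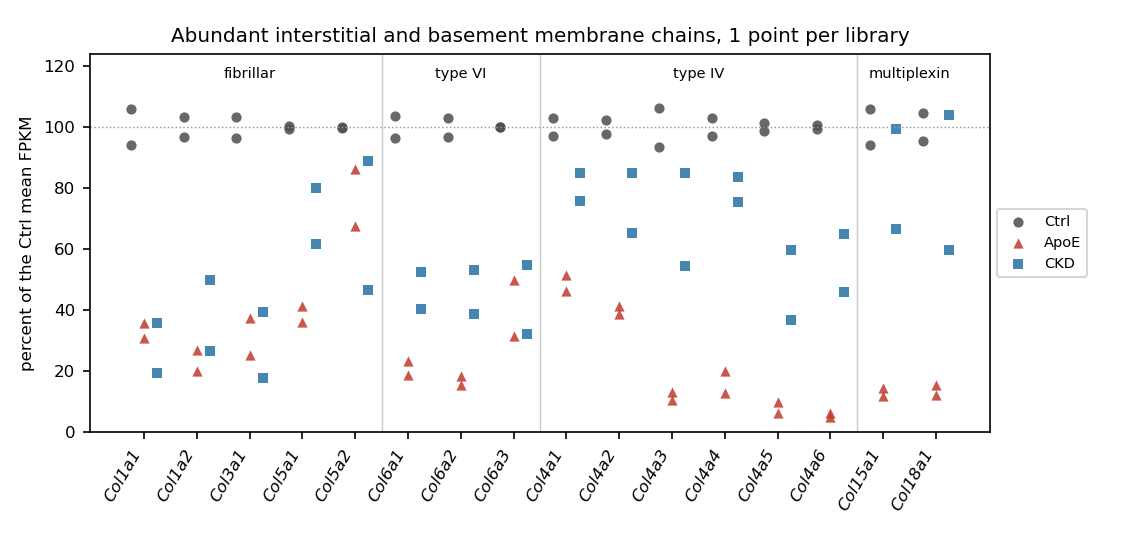
FPKM as a percent of the Ctrl mean for 16 abundant or basement membrane chains, 1 point per library; circles are Ctrl, triangles ApoE and squares CKD. ApoE and CKD overlap for Col1a1, Col1a2, Col3a1, Col5a2 and Col6a3, while for the type IV chains and the multiplexins Col15a1 and Col18a1 the ApoE triangles lie below every CKD square.

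The beaded filament chains assemble as α1, α2 and a further chain, usually α3, into type VI microfibrils. All 4 tested were lower in ApoE than in Ctrl (median log2 fold change -1.83), and 3 of 4 were lower in CKD (median -1.12). The 3 CKD calls were lost in the fit of only the 4 libraries compared. Of all genes, 24.3% were lower in ApoE and 3.21% in CKD. Col6a1 (ENSMUSG00000001119; chr10:76708792-76726168) had 196 and 182 FPKM in Ctrl, 43.7 and 35.3 in ApoE, and 76.1 and 99.4 in CKD. Its groups did not overlap, and it fell by 2.24 on the log2 scale in ApoE (SE 0.20, limma adjusted p = 0.000735). In CKD it was lower by less (log2 fold change -1.11, SE 0.20, limma adjusted p = 0.041), and ApoE was also below CKD (-1.13, limma adjusted p = 0.00821; not called without ApoE replicate 2). Col6a2, 85161 bases away in tandem, had 104 and 97.7 FPKM in Ctrl, 18.6 and 15.5 in ApoE, and 39.2 and 53.4 in CKD. Its log2 fold changes against Ctrl were -2.50 in ApoE (SE 0.19, limma adjusted p = 0.000482) and -1.12 in CKD (SE 0.19, limma adjusted p = 0.0392).

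Col6a3, the largest of the type VI chains, had 42.0 and 41.9 FPKM in Ctrl, 20.9 and 13.2 in ApoE, and 13.5 and 23.0 in CKD, so that the diseased groups overlapped below Ctrl. Its log2 fold change was -1.28 in ApoE (SE 0.30, limma adjusted p = 0.0186) and -1.21 in CKD (SE 0.30, limma adjusted p = 0.0718), and -0.07 between ApoE and CKD (limma adjusted p = 0.863). The ApoE call of Col6a3 was lost without Ctrl replicate 1, Ctrl replicate 2 or ApoE replicate 2. Col6a6, an alternative to Col6a3 in the trimer, had 3.25 and 3.23 FPKM in Ctrl, 0.561 and 0.602 in ApoE, and 0.856 and 1.20 in CKD. It fell in both diseased groups, by 1.42 in ApoE (SE 0.15, limma adjusted p = 0.00124) and by 1.07 in CKD (SE 0.15, limma adjusted p = 0.0289) on the log2 scale. The CKD call of Col6a6 was lost in the fit of only the 4 libraries compared. With a pseudocount of 0.1 the ApoE value was -2.29. The neighbouring Col6a5 stayed between 0.0662 and 0.264 FPKM. Col6a4 was at most 0.0406 FPKM in Ctrl and CKD and 0.236 and 0.387 in ApoE, with 3 reads in Ctrl, 81 in ApoE and 6 in CKD. Neither entered the main test.

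FACIT collagens decorate fibril surfaces, and 4 of the 9 were tested. In ApoE versus Ctrl 3 of 4 were lower (median -0.86), against 24.3% of all genes. In CKD versus Ctrl 0 of 4 passed. Col14a1, the most abundant, had 74.6 and 78.9 FPKM in Ctrl, 46.7 and 24.1 in ApoE, and 43.2 and 67.8 in CKD. Its ApoE and CKD libraries overlapped, and its log2 fold change in ApoE was -1.17 (SE 0.35, limma adjusted p = 0.0411). That call was lost without Ctrl replicate 1, Ctrl replicate 2 or ApoE replicate 2. Col16a1 had 13.6 and 12.1 FPKM in Ctrl, 7.28 and 4.92 in ApoE, and 9.12 and 9.62 in CKD, with a log2 fold change of -0.98 in ApoE (SE 0.18, limma adjusted p = 0.0085). It was not called without Ctrl replicate 1. Col20a1 had 2.67 and 2.98 FPKM in Ctrl, 1.26 and 1.32 in ApoE, and 3.31 and 1.98 in CKD, and its log2 fold change of -0.74 in ApoE (SE 0.20, limma adjusted p = 0.0289) did not hold without any 1 of the Ctrl or ApoE libraries. Col12a1, known from tissues under tension, had 3.56 and 3.48 FPKM in Ctrl, 2.99 and 1.83 in ApoE, and 3.17 and 4.10 in CKD and passed in no comparison. The other 5 stayed below 0.6 FPKM, and among them Col19a1 had 89 reads in Ctrl, 8 in ApoE and 50 in CKD.

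The multiplexins are heparan or chondroitin sulphate proteoglycans of basement membrane zones, and the end fragment of type XVIII is endostatin, an inhibitor of angiogenesis. Col18a1 (ENSMUSG00000001435; chr10:77052178-77166548) had 316 and 346 FPKM in Ctrl, 50.6 and 40.2 in ApoE, and 197 and 344 in CKD. Col15a1 (ENSMUSG00000028339; chr4:47208161-47313167) had 58.2 and 65.3 FPKM in Ctrl, 7.23 and 8.83 in ApoE, and 41.1 and 61.4 in CKD. For both genes CKD replicate 2 lay within the range of the Ctrl libraries and CKD replicate 1 below it, and both ApoE libraries lay below all others. Col18a1 fell by 2.85 in ApoE versus Ctrl (SE 0.29, limma adjusted p = 0.00116) and by 2.50 in ApoE versus CKD (limma adjusted p = 0.00244) on the log2 scale. For Col15a1 the log2 fold changes were -2.80 (SE 0.22, limma adjusted p = 0.000521) and -2.51 (limma adjusted p = 0.00115). Between CKD and Ctrl the log2 fold changes were -0.34 (SE 0.29, limma adjusted p = 0.469) and -0.29 (SE 0.22, limma adjusted p = 0.415).

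Among the short-chain collagens, which form hexagonal lattices, the genes moved apart. Col8a1 (ENSMUSG00000068196; chr16:57624258-57754737) had 5.07 and 3.39 FPKM in Ctrl, 51.6 and 38.8 in ApoE, and 4.08 and 9.79 in CKD. Both ApoE libraries stood above the other 4, and the rise was 3.15 on the log2 scale over Ctrl (SE 0.38, limma adjusted p = 0.00198) and 2.63 over CKD (SE 0.38, limma adjusted p = 0.0045). It was the only chain above 20 FPKM in ApoE that was higher there than in Ctrl. Its partner Col8a2 had 2.68 and 2.09 FPKM in Ctrl, 0.657 and 0.33 in ApoE, and 1.69 and 1.70 in CKD, and fell by 1.18 in ApoE on the log2 scale (SE 0.18, limma adjusted p = 0.00399), or -2.11 with a pseudocount of 0.1. The macrophage markers, 7 of 8 higher in ApoE than in Ctrl by limma, moved in the same libraries as Col8a1, and their part in its level was not tested. Col10a1, the chain of hypertrophic cartilage, had 0.230 and 0.127 FPKM in Ctrl, 5.19 and 0.946 in ApoE, and 0.173 and 0.332 in CKD. Only ApoE replicate 1 reached 1 FPKM, so the gene was not in the main test, and a fit without the filter gave a log2 fold change of 1.56 (SE 0.53, limma adjusted p = 0.109). Of the osteoblast markers, 7 were in the data with sums of 5.79 and 6.31 FPKM in Ctrl, 8.11 and 2.77 in ApoE, and 8.58 and 8.07 in CKD, and Sp7, the osteoblast transcription factor, was below 0.1 in every library.

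The 250 bases before the RefSeq starts of these 2 chains, whose levels were highest in ApoE replicate 1, are shown to set a start with a TATA sequence beside one without (Col8a1, chr16:57754738-57754987, minus strand; Col10a1, chr10:34389731-34389980, plus strand; capitals as above).
Col8a1: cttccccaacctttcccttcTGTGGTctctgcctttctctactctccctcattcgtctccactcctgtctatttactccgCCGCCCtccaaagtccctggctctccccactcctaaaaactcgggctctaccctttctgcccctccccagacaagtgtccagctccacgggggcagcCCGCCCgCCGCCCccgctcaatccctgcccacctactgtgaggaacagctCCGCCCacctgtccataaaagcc
Col10a1: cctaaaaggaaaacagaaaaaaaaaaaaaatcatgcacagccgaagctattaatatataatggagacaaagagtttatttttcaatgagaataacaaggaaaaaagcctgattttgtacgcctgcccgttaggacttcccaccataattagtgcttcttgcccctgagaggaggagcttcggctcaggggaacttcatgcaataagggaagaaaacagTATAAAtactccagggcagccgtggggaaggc
Col10a1 held TATAAA beginning 32 bases before its start. Col8a1 held 4 matches to GGGCGG and 1 to TGTGGT, which was found in 16.8% of all windows. The G and C content of the 300 base windows was 44.3% for Col10a1 and 60.3% for Col8a1.

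The remaining 7 chains were the transmembrane and the anchoring or unclassed ones. Col23a1, a transmembrane collagen, had 5.36 and 4.61 FPKM in Ctrl, 4.04 and 6.20 in ApoE, and 2.75 and 3.92 in CKD, and did not pass in any comparison. Col7a1, the anchoring fibril of skin, was at most 0.835 FPKM, and Col28a1 at most 0.538. Col13a1, Col17a1, Col25a1 and Col26a1 were at most 0.109 FPKM. None of these 6 passed the filter, and 1 read in 2 kb of exon was worth 0.0301 to 0.0347 FPKM. In a fit without the filter on low values, Col6a4 was the only 1 of the 16 low chains that passed, in ApoE versus Ctrl (log2 fold change 0.37, limma adjusted p = 0.0345) and in ApoE versus CKD (0.35, limma adjusted p = 0.043). Of all 27815 genes in that fit, 19.1% were called in ApoE versus Ctrl and 17.1% in ApoE versus CKD.

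The make-up of the collagen transcripts, a measure that does not depend on how a library is scaled, was compared by structural group. Fibrillar chains held 50.9% and 49.2% of the summed collagen FPKM in Ctrl, 53.6% and 53.3% in ApoE, and 31.4% and 36.5% in CKD. The CKD share was therefore the lowest in both libraries. Multiplexins held 14.9% and 16.5% in Ctrl, 6.64% and 7.15% in ApoE, and 23.7% and 25.7% in CKD, without overlap. Col1a1 was the leading chain in both Ctrl and both ApoE libraries, with 15.7% to 18.7% of the sum, and Col18a1 in both CKD libraries, with 19.6% and 21.8%. Basement membrane chains held 16.0% and 16.8% in Ctrl, 16.2% and 18.3% in ApoE, and 25.0% and 20.2% in CKD. Beaded filament chains held 9.67% and 9.52% in ApoE against 11.2% to 13.8% in the other 4 libraries. Short-chain collagens held 0.319% and 0.225% in Ctrl, 6.60% and 5.85% in ApoE, of which Col8a1 alone was 5.93% and 5.66%, and 0.590% and 0.748% in CKD. Shares were not tested, since an exact permutation test of 2 libraries against 2 cannot give a p below 0.333.

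**Figure D4:**
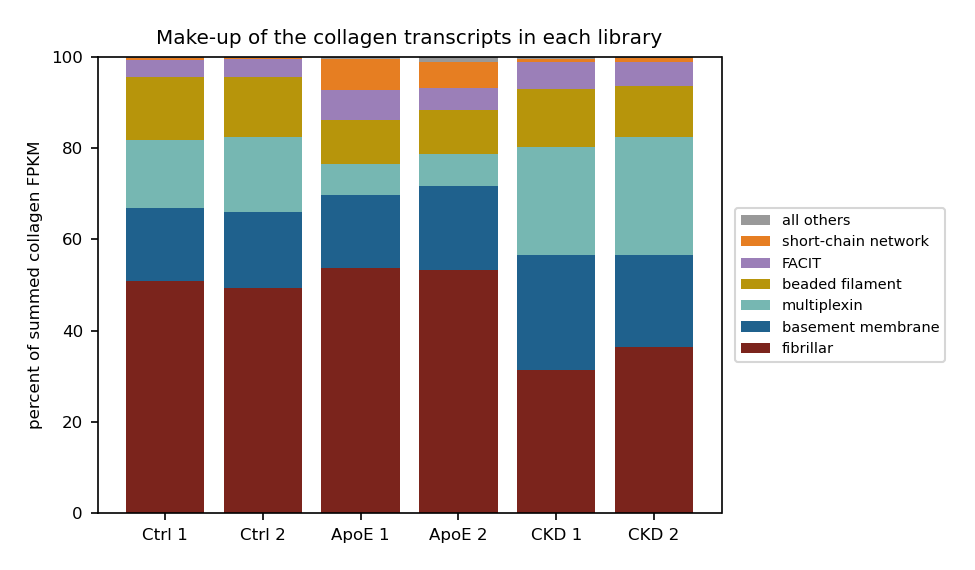
Percent of the summed collagen FPKM held by each structural group, 1 stacked bar per library. The fibrillar share is 31.4% and 36.5% in CKD against 49.2% to 53.6% in the other 4 libraries, and the short-chain share is 6.60% and 5.85% in ApoE.

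Chains that share a trimer were set against each other within each library. Col1a1 to Col1a2, in FPKM, was 1.17 and 1.11 in Ctrl, 1.53 and 1.76 in ApoE, and 0.836 and 0.820 in CKD, so that the 3 groups did not overlap. Col6a1 to Col6a2 was 1.89 and 1.86 in Ctrl, 2.35 and 2.27 in ApoE, and 1.94 and 1.86 in CKD, and was highest in ApoE. Col4a1 to Col4a2 was 1.14 and 1.15 in Ctrl, 1.43 and 1.37 in ApoE, and 1.33 and 1.15 in CKD, and again both ApoE libraries were highest. Col5a1 to Col5a2 was 0.971 and 0.984 in Ctrl, 0.469 and 0.523 in ApoE, and 1.29 and 0.880 in CKD, and was lowest in ApoE. Col8a1 to Col8a2 showed the widest spread, with 1.89 and 1.62 in Ctrl, 78.6 and 118 in ApoE, and 2.42 and 5.77 in CKD. Col4a3 to Col4a4 overlapped between groups, at 0.466 and 0.563 in Ctrl, 0.340 and 0.430 in ApoE, and 0.370 and 0.521 in CKD. The type IX ratio rested on 3 to 15 reads of Col9a2 per group and is not compared. The ratio of Col5a2 to Col1a1, chosen after the values were seen, was 0.147 and 0.165 in Ctrl, 0.374 and 0.341 in ApoE, and 0.373 and 0.385 in CKD.

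The genes that make and remodel collagen were read from lists of 53 genes, of which 48 were tested. In ApoE versus Ctrl 26 were lower (54.2%) and 6 higher by limma, with a median log2 fold change of -0.85. Of all genes, 24.3% were lower and 19.8% higher in that comparison. Between CKD and Ctrl 2 were lower (4.17%) and 0 higher, against 3.21% and 2.23% of all genes. In ApoE versus CKD 15 were lower (31.25%) and 9 higher, against 21.2% and 18.5% of all genes. The same shares of all genes apply to the counts of each list below. Of the 14 hydroxylation and glycosylation genes tested, 7 were lower in ApoE than in Ctrl and 1 was higher. P4ha2, a catalytic subunit of prolyl 4-hydroxylase, had 20.4 and 18.4 FPKM in Ctrl against 5.98 and 4.96 in ApoE (log2 fold change -1.66, limma adjusted p = 0.000928). P4ha3, another such subunit, had 0.594 and 0.421 in Ctrl, 4.32 and 3.54 in ApoE, and 0.647 and 1.26 in CKD (ApoE versus Ctrl 1.71, limma adjusted p = 0.00187). It reached 1 FPKM only in the ApoE libraries and CKD replicate 2, so it passed the filter on low values only with an ApoE library. P3h2, a prolyl 3-hydroxylase known for acting on type IV collagen, had 9.66 and 8.52 FPKM in Ctrl against 1.33 and 1.03 in ApoE (-2.21, limma adjusted p = 0.00347). P4ha1 was lower in CKD, with 51.5 and 40.0 FPKM in Ctrl against 12.6 and 18.6 in CKD (-1.51, limma adjusted p = 0.0351). That call, like every other between CKD and Ctrl, was lost without either Ctrl library, where 0 of all genes were called. The subunits thus did not move alike.

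Of the 9 folding and export genes, 7 were lower in ApoE and 1 in CKD. Sparc, a collagen-binding matricellular protein, had 1617 and 1746 FPKM in Ctrl, 378 and 357 in ApoE, and 335 and 594 in CKD, and passed in both comparisons with Ctrl (log2 fold changes -2.19 and -1.91, limma adjusted p = 0.00283 and 0.0346), of which the CKD call was lost without either Ctrl library. Serpinh1, the collagen chaperone HSP47, had 520 and 429 FPKM in Ctrl, 280 and 192 in ApoE, and 132 and 209 in CKD (limma adjusted p = 0.039 in ApoE and 0.0505 in CKD). Of the 6 propeptide processing genes tested, 5 were lower in ApoE, among them Pcolce2, an enhancer of C-propeptide cleavage, with 73.3 and 60.2 FPKM in Ctrl against 14.5 and 11.1 in ApoE (-2.30, limma adjusted p = 0.00143). The N-propeptidase gene Adamts14 had 4.93 and 5.03 FPKM in Ctrl, 1.07 in both ApoE libraries, and 7.20 and 5.30 in CKD. Of the 5 cross-linking genes 2 were lower in ApoE than in Ctrl, Loxl1 (109 and 102 FPKM against 44.9 and 26.5) and Loxl3 (27.3 and 35.1 against 17.5 and 14.5).

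Among the 8 receptor genes tested, 5 were lower in ApoE than in Ctrl and 1 was higher. Itga1, the integrin chain that binds type IV collagen, had 13.4 and 15.2 FPKM in Ctrl, 3.72 and 3.14 in ApoE, and 7.38 and 9.59 in CKD (ApoE versus Ctrl -1.79, limma adjusted p = 0.000784). Lair1, an inhibitory collagen receptor of leukocytes, had 0.965 and 0.530 FPKM in Ctrl, 14.1 and 10.9 in ApoE, and 0.624 and 1.63 in CKD (2.95, limma adjusted p = 0.00085). Lair1 too reached 1 FPKM only in the ApoE libraries and CKD replicate 2, and passed the filter on low values only with an ApoE library. Of the 6 collagen-cleaving proteases 4 were higher in ApoE, both against Ctrl and against CKD, and 0 passed in CKD versus Ctrl. Among the 4 is Mmp8, which passed the filter on low values through the ApoE libraries alone. It had 4.71 and 2.77 FPKM there and at most 0.436 in Ctrl and CKD. Mmp13, an interstitial collagenase, had 0.944 and 0.395 FPKM in Ctrl, 20.8 and 13.5 in ApoE, and 1.65 and 3.08 in CKD. Mmp14, a membrane collagenase, had 17.8 and 14.8 in Ctrl, 63.2 and 61.4 in ApoE, and 15.4 and 26.7 in CKD, and Ctsk, a lysosomal collagenase of osteoclasts and macrophages, had 48.8 and 50.3, 181 and 270, and 24.8 and 47.5. ApoE was the group with the lowest summed collagen FPKM and the highest levels of these 3 protease genes. Both are transcript levels, and a link between them was not tested. Mmp2 and Mmp9, also on the list, were not called in ApoE versus Ctrl or in ApoE versus CKD. The macrophage markers were higher in the same ApoE libraries, and their part in the protease levels was not tested.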

How the data were processed

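Polyadenylated RNA of 6 mouse aorta libraries was analysed. The tools listed, per the submitters' processing notes, are Bowtie2 (2.2.3), TopHat2 and HISAT2 (2.1.0), with build GRCm38. Which tool did what, how reads were counted and on which annotation is not stated in the notes and labels used here. The deposited values carry no unit and were taken as FPKM made by the authors; in 5 of the 6 deposited files the identifiers and the other values are stacked in 1 column. Multiplying by GENCODE M21 exon length gave whole reads, within 0.05, for 95.0% to 95.4% of values under 30 reads, and read numbers come from that scale. Symbols matched 27695 of 27815 identifiers.

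Tests used log2(FPKM + 1) and kept the 14074 genes that reached 1 FPKM in 2 or more libraries, in a single limma 3.58.1 model of group means over all 6 libraries (R 4.3.3, variance trend, robust), with Benjamini-Hochberg adjustment over all genes and calls at an adjusted p below 0.05. The model pools the spread of all groups. Values per library were named for chains called in any comparison, with a mean of at least 10 FPKM or in a partner ratio, and up to 4 called genes of each pathway list. Members and lists were chosen with earlier results of these data known. Alternatives changed the pseudocount, filter, scaling, replicate block, libraries or adipocyte covariate. Reads of overlapping genes cannot be told apart, since the kit does not mark strand; at most 6.07% of a chain's exon bases overlap another gene. Promoter windows are from RefSeq (GRCm38.p6).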

Additional observations from a re-analysis of the deposited data

How the results depend on the processing

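Pseudocount and scaling alternatives changed no count of called collagen chains by over 1.5 times. In ApoE versus Ctrl the median log2 fold change was -0.43 with no filter on low values, and with the adipocyte level as a covariate 8 chains were lower and the median was -0.98. In CKD versus Ctrl the number lower was 0 with no filter, with the replicate block, with the covariate and with only the 4 libraries compared. In ApoE versus CKD the median was -0.14 with no filter. Leaving out 1 library at a time gave 14 to 21 lower, 1 to 3 higher and medians of -1.43 to -1.24 in ApoE versus Ctrl, 0 to 12 lower, 0 to 1 higher and medians of -0.66 to -0.32 in CKD versus Ctrl, and 7 to 14 lower, 1 to 4 higher and medians of -0.81 to -0.44 in ApoE versus CKD. Without ApoE replicate 1 or 2, Col2a1 fell below the filter. The cause of these changes was not tested, except that no filter adds the 16 low chains.

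Libraries with the same replicate number did not deviate together (correlations 0.05 for Ctrl with ApoE, -0.23 for Ctrl with CKD and -0.10 for ApoE with CKD), so they share only a number. The replicate block gave 19 lower and 3 higher chains in ApoE versus Ctrl, 0 lower in CKD versus Ctrl, and 12 lower and 2 higher in ApoE versus CKD. Of all genes, 36.7%, 0.327% and 32.4% were called in that fit, in the same order.

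Signs changed only for chains called in neither fit. The value became -0.0546 for Col23a1 in ApoE versus Ctrl on scaling without mitochondrial and the 50 most abundant genes. With the covariate it became 0.53 for Col5a2 in ApoE versus Ctrl, and 0.0704 for Col23a1, 0.0798 for Col14a1, 0.38 for Col18a1, 0.30 for Col5a2 and 0.18 for Col15a1 in CKD versus Ctrl. Leaving out 1 library at a time gave ranges across 0 as follows. In ApoE versus Ctrl Col23a1 ranged from -0.25 to 0.27. In CKD versus Ctrl Col18a1 ranged from -0.74 to 0.0581, Col12a1 from -0.12 to 0.17, Col20a1 from -0.36 to 0.17 and Col8a1 from -0.0236 to 1.06. In ApoE versus CKD Col3a1 ranged from -0.35 to 0.79, Col5a3 from -0.26 to 0.40, Col6a3 from -0.44 to 0.29, Col1a1 from -0.11 to 0.76, Col27a1 from -0.68 to 0.0863, Col5a2 from -0.22 to 0.69 and Col11a2 from -0.15 to 0.31. Depth limits the 16 low chains.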
